A study of Rattus norvegicus with 7 samples.

Results

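The MAP kinase cascade members described here are 8 genes named by symbol: Map4k4, Map3k8, Map2k1, Mapk3, Mapk8, Mapk9, Mapk14 and Mapk8ip3. Every probe set (a group of short oligonucleotides on the array that together give 1 signal) whose platform annotation named exactly 1 of these symbols was taken, which gave 13 probe sets of 7 genes, out of 20826 probe sets that name 14217 genes alone. No probe set named Mapk3 alone, so this gene was not analysed here. The genes were selected on the signals of these same 7 arrays, with the ratios to 0 hours already known, and their values are therefore given as a description with no test. Cells of the spinal cord of Sprague-Dawley rat embryos at embryonic day 15, freed of meninges and dorsal root ganglia, were kept for 3 days on flexible membranes coated with type IV collagen and then stretched cyclically (cyclic tensile stress) by 10% at a frequency of 0.5 Hz. RNA was taken before loading (0 hours), early in loading (at 2, 6 or 12 hours) and late in loading (at 24, 48 or 72 hours). Where 7 values of a probe set are given in a row, they are those of the 7 arrays from 0 to 72 hours. At each time the RNA from 5 animals was pooled for 1 array, so the 7 groups hold 1 array each and no spread between cultures can be given. No array of an unloaded culture at a later time was analysed here, and time under load and time in culture cannot be told apart. The strain was not the same over the whole well, and the culture held several cell types.

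MAP kinases are the last tier of relays in which each kinase switches on the next by adding phosphate groups. A MAP4K or a small GTPase activates a MAP3K, the MAP3K a MAP2K and the MAP2K the MAP kinase, and scaffold proteins hold the tiers together. In neurons and glia the ERK branch is known for growth factor signals, and the JNK and p38 branches for responses to stress and injury. The proteins are switched mainly by phosphorylation, which an array of mRNA does not measure.

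The 7 arrays were alike in scale, with trimmed means of the signal between 500.144 and 500.162. On each array 42.5% to 44.3% of probe sets lay below a signal of 100, where single values are unreliable. The ratio of the 3' to the 5' control probe set of beta-actin, a measure of RNA length, was 1.53 to 2.20 up to 24 hours, then 2.54 on the 48 hour and 2.62 on the 72 hour array. The signals of 14 neuronal markers at 0 hours ran from 75.7 for Gad2 to 4350.2 for Gap43, with 2123 for Snap25 and 379 for Rbfox3. Markers of other cell types were present as well, several of them brighter. At 0 hours the fibroblast markers ran from 738 for Pdgfrb to 21328 for Col3a1, and the astrocyte markers from 59.2 for Slc1a2 to 15869 for Gja1. Those of microglia and macrophages ran from 64.5 for Cx3cr1 to 12270 for Cd68. Those of skeletal muscle ran from 178 for Ttn to 4152 for Acta1, with 2541 for Myog. Signals of different probe sets do not give the shares of the cell types. All 4 endothelial markers stayed below 100 on every array.

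Map4k4 and Map3k8, at the top of the cascade, had higher signals late in the time course, while Mapk8 and Mapk9, which encode the kinases JNK1 and JNK2, had lower ones. Map2k1 and Mapk14 stayed within a ratio of 0.874 to 1.20 of their 0 hour signal. A later array was set against the 0 hour array by a rule of size, which asks for a signal 2 times higher or lower and for a difference of 200 or more. None of the 13 probe sets met this rule on the first 3 later arrays, where of all 31042 probe sets 0.0387% were higher and 0.47% lower at 2 hours, 0.351% and 1.22% at 6 hours, and 0.419% and 1.71% at 12 hours. At 24 hours 1 member probe set was higher and none lower, against 0.496% and 1.31% of all probe sets. At 48 hours 3 were higher and none lower, against 1.98% and 3.05% of all. At 72 hours 4 were higher and 1 lower, against 2.6% and 3.54% of all. These arrays also served to choose the genes, so nothing is read from the counts. The median ratio of the 13 probe sets at 72 hours was 1.19, and that of all probe sets was 1.03, and nothing is read from this either.

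**Figure D1:**
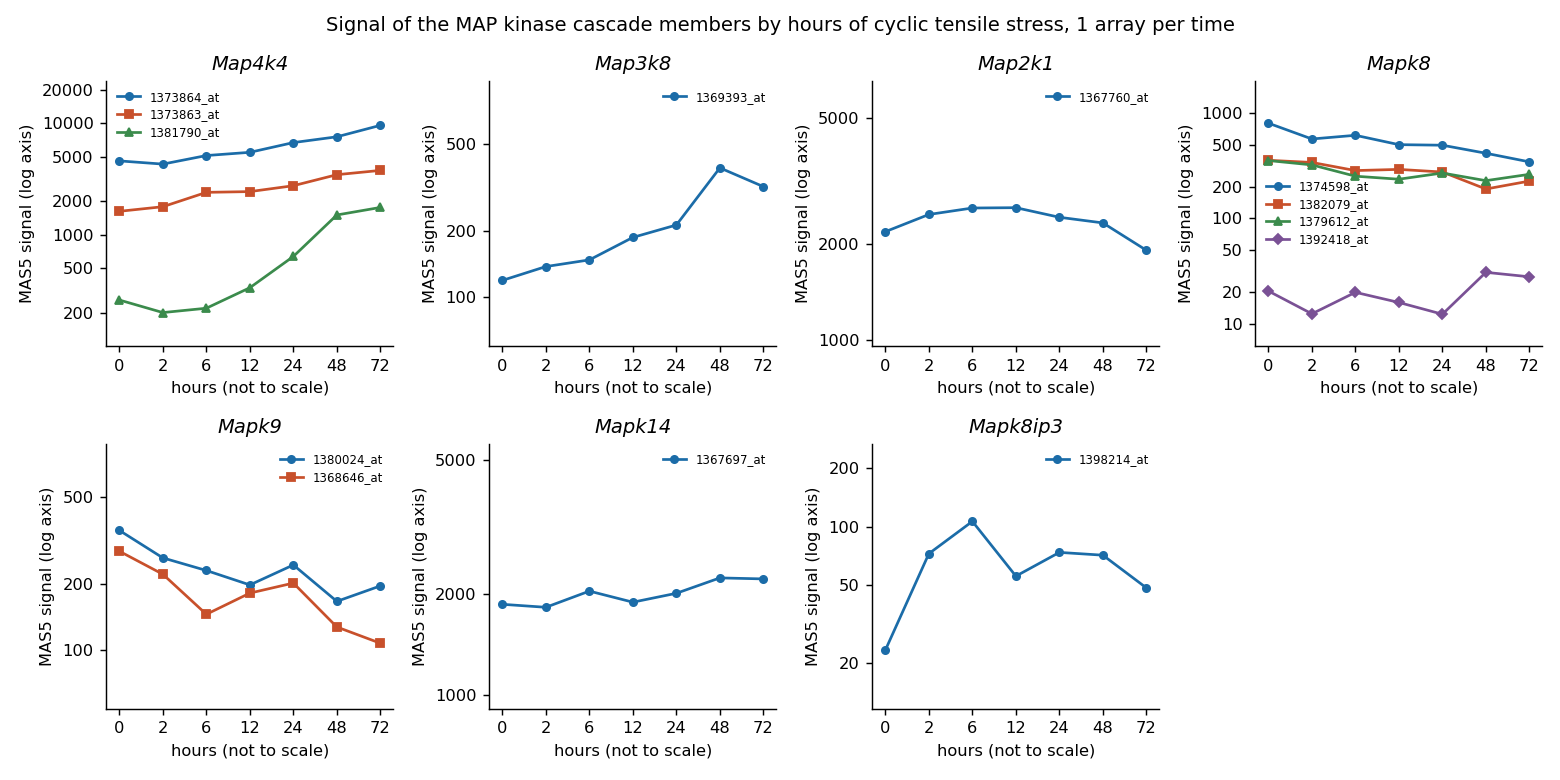
Signal of each probe set (vertical axis, MAS5 signal on a log scale) on the 7 arrays by time under load (horizontal axis, hours, spaced evenly), with 1 panel per gene and 1 line per probe set. The 3 lines of Map4k4 end at their highest values, 3 of the 4 lines of Mapk8 and both lines of Mapk9 start at theirs, and the lowest line of Mapk8 and the line of Mapk8ip3 lie near or below 100.

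Promoter sequences of 5 members (Map3k8, Map2k1, Mapk8, Mapk14 and Mapk8ip3) were read from the RefSeq table of the rat assembly GRCr8, and those of Map4k4, Mapk3 and Mapk9 were not used here. The 250 bases before the start site of Map3k8 and of Mapk8 are shown because these 2 of the 5 met the rule of size at 72 hours, in opposite directions. Capitals mark the GC box GGGCGG on either strand. The first lies at chr17:58077925-58078174 on the plus strand and the second at chr16:8728226-8728475 on the minus strand.
Map3k8: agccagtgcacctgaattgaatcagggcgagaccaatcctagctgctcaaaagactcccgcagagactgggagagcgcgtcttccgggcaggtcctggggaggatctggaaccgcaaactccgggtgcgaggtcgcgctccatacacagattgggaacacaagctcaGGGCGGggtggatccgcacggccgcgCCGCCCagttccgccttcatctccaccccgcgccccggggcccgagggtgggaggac
Mapk8: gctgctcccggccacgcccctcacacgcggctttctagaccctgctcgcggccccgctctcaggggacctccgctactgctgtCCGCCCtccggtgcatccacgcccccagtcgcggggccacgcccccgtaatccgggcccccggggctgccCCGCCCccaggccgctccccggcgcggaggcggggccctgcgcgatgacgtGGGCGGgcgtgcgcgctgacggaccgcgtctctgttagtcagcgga
The Map3k8 window holds 2 GC boxes and the Mapk8 window 3. Those of Map2k1, Mapk14 and Mapk8ip3 hold 2 each, the pair of Mapk8ip3 overlapping by 1 base, and 30.5% of 33469 windows of the same length hold at least 1. The sites TGACTCA of AP-1 and TGACGTCA of CREB, factors that MAP kinases act on, were searched on both strands and matched in none of the 5 windows, while 4.05% and 1.59% of all windows hold one. The GC content was 65.6% for Map3k8 and 76.8% for Mapk8, with a median of 51.2% over all windows.

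Map4k4 encodes a kinase of the Ste20 family that can act above the JNK branch, and its 3 probe sets all had their highest signal at 72 hours. The probe set 1373864_at had signals of 4610.2, 4315, 5149.8, 5504, 6733, 7587 and 9615. The probe set 1373863_at had 1626, 1788, 2406, 2443, 2759, 3466 and 3787. It was higher on every array than on the one before, as were 0.506% of all probe sets. At 72 hours their ratios to 0 hours were 2.09 and 2.33. A straight line through the 7 values of log2(signal + 32) gave a change over 72 hours of 1.07 (standard error 0.12) for the first and 1.08 (standard error 0.18) for the second. The fitted changes were thus close. Both were read on the same 7 arrays and the errors are those of the lines, so they give no test of agreement.

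The third probe set of Map4k4, 1381790_at, had another time course. Its signals were 259.7, 200.3, 219, 335, 639, 1507 and 1761. It was the first member to meet the rule of size, at 24 hours with a ratio of 2.46, and reached ratios of 5.80 at 48 hours and 6.78 at 72 hours. The fitted change was 3.17 on the log2 scale (standard error 0.30). Between 24 and 48 hours its level on the log2(signal + 32) scale differed by 1.20, against a residual spread around the line of 0.36, and the gap from 48 to 72 hours was smaller than that spread. The ratio of beta-actin control probe sets was also highest on the 48 and 72 hour arrays, while that of GAPDH was 1.16 to 1.17 from 24 hours on. The part of RNA length in this result was not tested. Where the 3 probe sets lie in the Map4k4 transcripts was not examined here.

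Map3k8 encodes a MAP3K, also called Tpl2, that activates the MEK kinases and is held inactive by p105, the product of Nfkb1, together with ABIN2, the product of Tnip2. The probe set 1369393_at of this gene, whose promoter window with 2 GC boxes is printed above, had signals of 119, 137, 147, 187, 213, 389 and 319. The highest value was at 48 hours, with 3.28 times the 0 hour signal, and the ratio at 72 hours was 2.69. At 72 hours the difference from 0 hours was 200.5, just above the 200 that the rule asks for, so this call has no margin, and with the 0 and 2 hour signals averaged as baseline it was not met. The fitted log2 change was 1.34 (standard error 0.26), and 2.10 without the 72 hour array. Nfkb1 rose with hours by limma's test for a linear change, with a log2 change of 0.51 (standard error 0.16, adjusted p = 0.0344), and its signal was 1553 at 72 hours against 1065 at 0 hours. This call was lost without the 0, 2, 12 or 48 hour array, with adjusted p between 0.0529 and 0.108 from limma, and with arrays scaled to the same median (0.0743) or no intensity trend in the fit (0.0530). Tnip2 was highest at 12 hours with a signal of 1384, had 974 at 72 hours against 896 at 0 hours, and did not pass the test (adjusted p = 0.944 from limma).

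**Figure D2:**
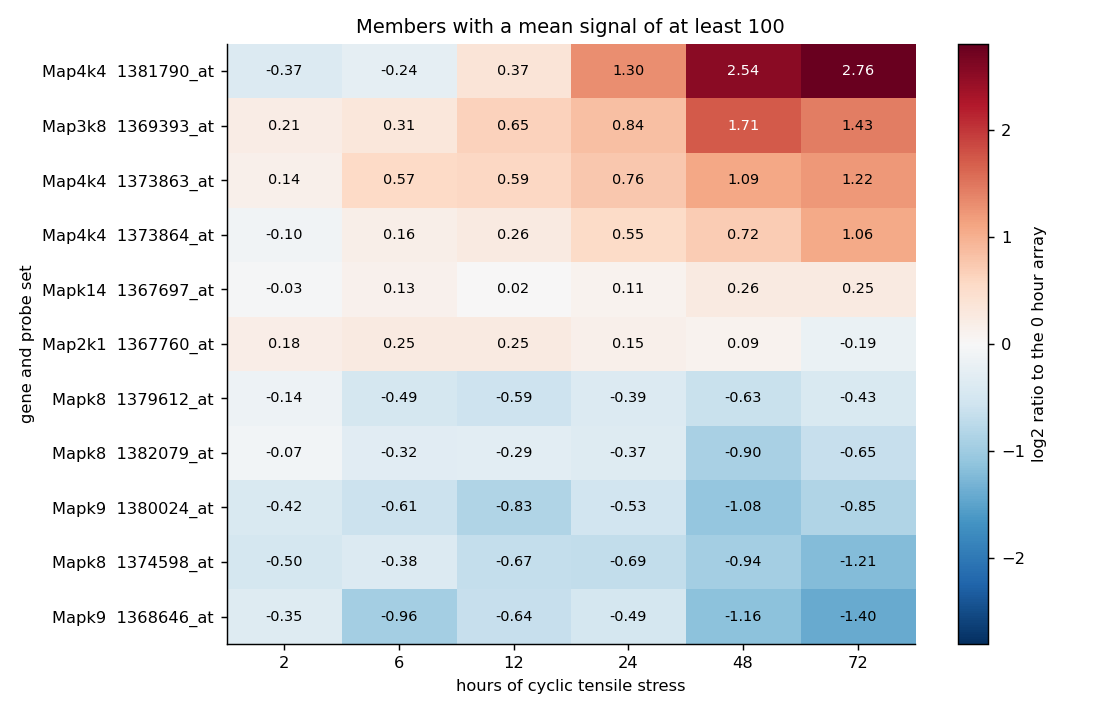
Log2 ratio to the 0 hour array (colour and printed number) of the 11 member probe sets whose mean signal reached 100 (rows, ordered by the 72 hour value) at 6 times (columns). The top 4 rows, of Map4k4 and Map3k8, end at ratios of 2.09 to 6.78, and the bottom 5 rows, of Mapk8 and Mapk9, at ratios of 0.378 to 0.741.

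Map2k1 encodes MEK1, the kinase that activates the ERK kinases. Its signals were 2193, 2483, 2602, 2608, 2433, 2336 and 1916. The highest ratio was 1.19, at 6 and 12 hours, and the value at 72 hours was the lowest, with 0.874 of the 0 hour signal. The fitted log2 change was -0.29 (standard error 0.14) and rested on the last array, since it was -0.05 without it. Map2k2, which encodes MEK2, fell with hours (log2 change -0.59, standard error 0.13, adjusted p = 0.00763 from limma). Its signal was 1094 at 72 hours against 1649 at 0 hours, and the adjusted p was 0.109 without the 72 hour array.

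Mapk8, the gene with 3 GC boxes in its window, was measured by 4 probe sets, of which 3 were lower on all 6 later arrays than at 0 hours. The brightest on average, 1374598_at, had signals of 795, 564, 611, 498, 492, 413 and 343. Its ratio was already 0.709 at 2 hours and was 0.431 at 72 hours, where it was the only member to meet the rule of size in the lower direction. With the 0 and 2 hour signals averaged as baseline the ratio was 0.504, and the rule was no longer met. The probe set 1382079_at had signals of 355, 338, 284, 291, 275, 189.9 and 226. In 1379612_at they were 353, 321, 251, 235, 269, 228 and 261, so that both were lowest at 48 hours. The fitted log2 changes of the 3 probe sets were -0.88 (standard error 0.19), -0.64 (0.20) and -0.27 (0.22). If the 72 hour array was left out the second was -1.07 and the third -0.61, and the third was -0.14 if the 0 hour array was left out. The fourth probe set, 1392418_at, had signals between 12.5 and 31.0, too low to be read.

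Mapk9 had 2 probe sets, both lower than at 0 hours on all 6 later arrays. In 1368646_at the signals were 283, 222, 145, 182, 202, 127 and 107. In 1380024_at they were 352, 264, 231, 198, 245, 166 and 196. Both thus had a partial return at 24 hours, with ratios of 0.714 and 0.694, and their ratios at 48 hours were 0.449 and 0.472. The first ended at 0.378 and the second at 0.556. Neither met the rule of size on any array, since each ratio below 0.5 came with a difference below 200. The fitted log2 changes were -0.89 (standard error 0.27) and -0.56 (standard error 0.25), and the second was -0.99 if the last array was left out and -0.37 if the first was. A further 2 probe sets are annotated to both Mapk8 and Mapk10, which encodes the JNK3 kinase of neurons, and were left out because they name no gene alone. Their signals were 34.8 and 109 at 72 hours against 100.1 and 228 at 0 hours.

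Markers of several cell types moved over the same arrays as Mapk8 and Mapk9. Of 14 neuronal markers, 10 were lower by the rule of size at 72 hours and none was higher. Their summed signal was 21622, 13198, 10829.6, 7219, 9532, 6018 and 7564, so that it was higher at 24 than at 12 hours and lowest at 48 hours. Of the 5 readable probe sets of Mapk8 and Mapk9, 1379612_at and both of Mapk9 were higher at 24 than at 12 hours, and 1382079_at, 1379612_at and 1380024_at were lowest at 48 hours. The summed signal of 10 markers of microglia and macrophages was highest at 6 hours (63551) and lowest at 72 hours (30049), with 4 of them lower by the rule and none higher at 72 hours. That of 7 markers of skeletal muscle was 2529 at 72 hours against 10243 at 0 hours, with 5 lower and none higher. The sums of 8 astrocyte, 7 oligodendrocyte lineage and 7 fibroblast markers at 72 hours were 0.957, 0.977 and 0.930 of those at 0 hours. In these lists 1 oligodendrocyte and 1 fibroblast marker were lower by the rule and none was higher. The brightest markers weigh most in a sum, and single markers differed in both directions. At 72 hours Gfap was at 0.622 and Gja1 at 1.07 of the 0 hour signal. Olig1 was at 0.299 and Pdgfra at 1.12, Dpt at 0.424 and Dcn at 1.85. Gad2, Cx3cr1 and Olig2 were below 100 on every array, too low to be read. In RNA of whole cultures fewer cells of a type and less RNA per cell cannot be told apart, and the part of these shifts in the signals of the members was not tested.

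**Figure D3:**
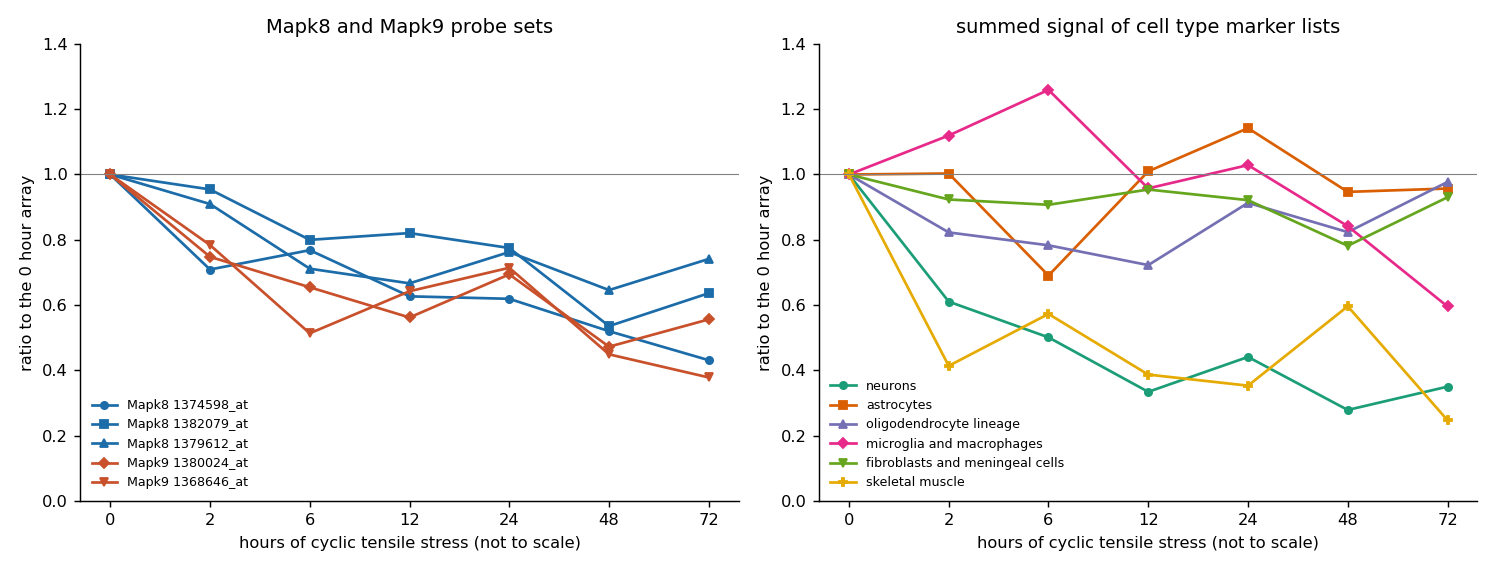
Ratio to the 0 hour array (vertical axes, linear from 0) by time under load (horizontal axes, hours, spaced evenly) for the 5 readable probe sets of Mapk8 and Mapk9 (left) and for the summed signal of 6 lists of cell type markers (right), with 1 array per time. The neuronal sum lies at 0.334 at 12 hours and 0.350 at 72 hours, and the 5 probe sets lie between 0.378 and 0.741 at 72 hours.

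Mapk14, which encodes the p38 alpha kinase, had a narrow range of signals. Its signals were 1863, 1826, 2039, 1891, 2009, 2231 and 2216, and the highest was 1.22 times the lowest. The fitted log2 change was 0.27 (standard error 0.12). Of the other p38 genes, Mapk11 had signals between 19.3 and 59.7 and was too low for the test. Mapk12 and Mapk13, not among the genes chosen for naming, were tested and did not pass (adjusted p = 0.352 and 0.991 from limma). Map2k3, a MAP2K of p38, had 2169 at 72 hours against 1767 at 0 hours (adjusted p = 0.384 from limma). Map2k6, also a MAP2K of p38, had signals of 228, 152, 93.7, 79.0, 114, 66.2 and 62.0 over the 7 arrays, so that the largest part of the difference lay within the first 6 hours, and it did not pass the test for a linear change (adjusted p = 0.0555 from limma). With the square root of hours in place of hours it did (adjusted p = 0.0160 from limma). It also passed without the 6 or 12 hour array (0.0430 and 0.0348 from limma). Without the 2, 24, 48 or 72 hour array it did not (0.0776 to 0.141 from limma). Its mean signal was 113, and most of its later signals were below 100, where single values are unreliable. Mapkapk2, a kinase activated by p38, had 2200.4 at 72 hours against 2007 at 0 hours and did not pass (adjusted p = 0.960 from limma).

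Mapk8ip3 encodes JIP3, a scaffold of the JNK branch that also links cargo to motor proteins in axons. In the platform annotation used here its only probe set was 1398214_at, with signals of 23.3, 72.7, 106, 55.7, 73.8, 71.4 and 48.5. All 6 later values were above the 0 hour value, with ratios of 2.08 to 4.57, but 6 of the 7 signals were below 100 and no difference reached 200. With the 0 and 2 hour signals averaged as baseline the 72 hour ratio was 1.01, so the ratios rest on the single 0 hour value of 23.3. The related scaffold Mapk8ip1 (JIP1) had 1387 at 72 hours against 1754 at 0 hours, with its lowest value of 1072 at 12 hours, and did not pass the test (adjusted p = 0.686 from limma). Mapk8ip2 (JIP2) had signals between 2.08 and 31.9 and was not tested. Spag9 (JIP4) had 3164 at both 0 and 72 hours in its brightest probe set (adjusted p = 0.676 from limma). Another of its 4 probe sets, 1382020_at, rose, with 2.20 times the 0 hour signal at 72 hours (log2 change 1.65, adjusted p = 0.00504 from limma). Its probe sets 1397618_at and 1394436_at were at 1.58 and 1.28 times the 0 hour signal and did not pass (adjusted p = 0.180 and 0.269 from limma). The 3 probe sets of Map4k4 were all higher at 72 than at 0 hours and differed in size as well.

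The other genes of the MAPK pathway were taken from a list of 110 symbols, of which 92 were named alone by a probe set and 83 reached a mean signal of 100. Each was represented by its probe set of highest mean signal, and limma's test for a line through the hours was run over all 17709 probe sets of that signal. In the list 10 genes rose, 8 fell and 65 did not pass the test, which is 12.0% and 9.64% of those tested. Over all probe sets tested 15% rose and 14.1% fell, so the shares in the list were not above the background. The median fitted change was 0.03 in the list and -0.0021 over all probe sets. The counts depended on single arrays, since leaving out the 2 or 48 hour array left 4 or 3 rising genes, and leaving out the 2, 24, 48 or 72 hour array left 4, 5, 4 or 3 falling ones. The calls over all probe sets tested dropped as well. Without the 2 or 48 hour array 1868 or 1606 rose, in place of 2650. Without the 2, 24, 48 or 72 hour array 1672, 2209, 1609 or 1266 fell, in place of 2493. At 72 hours 2.6% of all 31042 probe sets were higher and 3.54% lower by the rule of size. In its probe set of highest mean signal none of the 92 genes was higher by this rule and 3 were lower. The 3 lower genes were Mef2c, Rps6ka4 and the kinase gene Pak3, which lies outside the naming rule and was named after its values were seen (294 at 72 hours against 776 at 0 hours, adjusted p = 0.0908 for the line from limma).

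Among the Ste20 kinases related to Map4k4, Map4k5 rose (2043 at 72 hours against 1344 at 0 hours, log2 change 0.65, standard error 0.12, adjusted p = 0.00346 from limma), while its other probe set, at 1.31 times the 0 hour signal, did not pass (adjusted p = 0.0833 from limma). Map4k1, known from blood cells, fell (163 at 72 hours against 349 at 0 hours, adjusted p = 0.00249), although it was above its 0 hour signal from 2 to 24 hours and the adjusted p was 0.0743 from limma without the 72 hour array. Stk3, a kinase of the Hippo pathway, fell as well (520 at 72 hours against 861 at 0 hours, adjusted p = 0.0228 from limma, and 0.0649 and 0.0710 without the 2 and the 48 hour array). Over all probe sets tested 15% rose and 14.1% fell, and of 13 tested MAP3K genes 2 rose (15.4%) and none fell. They were Taok1 (1.76 times the 0 hour signal at 72 hours, adjusted p = 0.0161, and 0.0883 from limma without the 72 hour array) and Taok2 (1.83 times, adjusted p = 0.0394), and Taok2 did not pass when any single array was left out (adjusted p between 0.0535 and 0.113 from limma), nor with either other scaling or no filter on low signals (0.0585 to 0.0693). Mapk10, Map2k4 and Map2k7 were not named alone by a probe set and were not analysed here.

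Of the kinases that MAP kinases activate, Rps6ka4, which encodes the nuclear kinase MSK2, fell (349.6 at 72 hours against 733 at 0 hours, log2 change -1.11, standard error 0.15, adjusted p = 0.00097 from limma). Another Rps6ka4 probe set, 1375741_at, was at 0.990 of its 0 hour signal and did not pass (adjusted p = 0.371 from limma), and the third was below 100 on average. Mapkapk5 rose (1241 at 72 hours against 746 at 0 hours, adjusted p = 0.00488, and 0.0653 from limma without the 72 hour array). Rps6ka3 (RSK2) fell in its brightest probe set (900.1 at 72 hours against 1351 at 0 hours, adjusted p = 0.0453 from limma). It did not pass without any single array other than that of 12 hours (adjusted p between 0.0628 and 0.129 from limma), nor with no filter on low signals (0.0660) or no intensity trend (0.0645). Of its other probe sets 1 fell (0.424 of the 0 hour signal, adjusted p = 0.0419 from limma) and 1 did not pass (1.05 times, adjusted p = 0.613). Of the transcription factors that MAP kinases phosphorylate, Mef2c, of muscle, neurons and microglia, was lower on every array than on the one before, as were 0.577% of all probe sets, and fell, with signals of 1749, 1668, 1534, 1382, 1134, 937 and 614 (log2 change -1.38, standard error 0.13, adjusted p = 0.000193 from limma). Mef2d rose (726 at 72 hours against 474 at 0 hours, adjusted p = 0.0243, and 0.0555, 0.0595 and 0.245 from limma without the 2, 48 and 72 hour array), and its other probe set did not pass (1.45 times the 0 hour signal, adjusted p = 0.716). The summed markers of neurons, of skeletal muscle and of microglia were 0.350, 0.247 and 0.595 of their 0 hour values at 72 hours, and their part in the signals of Mef2c and Map4k1 was not tested. The adaptors Traf2 (294 at 72 hours against 104 at 0 hours, adjusted p = 0.0288) and Traf6 (657 against 423, adjusted p = 0.0428 from limma) of stress and cytokine receptors rose. Nlk, a MAP kinase relative, rose by a factor of 1.27 in its brightest probe set (adjusted p = 0.0353), while its 3 other tested probe sets did not pass (0.212 to 0.719 from limma). Pea15, which binds ERK, and the small GTPase gene Rap1a fell to 0.856 and 0.832 of their 0 hour signals (adjusted p = 0.0466 and 0.0442 from limma). Nlk, Pea15 and Rap1a did not pass without any single array other than that of 0 hours (adjusted p from limma between 0.0540 and 0.195, 0.0688 and 0.181, and 0.0644 and 0.134). They also lost the call with the square root of hours, the order of arrays, the same median or no intensity trend (0.0552 to 0.119 over the 3 genes from limma), Pea15 and Rap1a with no filter on low signals (0.0660 and 0.0621), and Pea15 with a lower filter (0.0508) or quantile normalization (0.0635). The other probe set of Pea15 fell (adjusted p = 0.0168 from limma) and that of Rap1a did not pass (0.0550). Traf6 did not pass without any array other than that of 12 hours (0.0650 to 0.124 from limma), with either other scaling or no filter (0.0536 to 0.0778), nor in its other 2 tested probe sets (0.169 and 0.543). Traf2 did not pass without the 48 or 72 hour array (0.0917 and 0.124 from limma) or with no filter (0.0521).

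**Figure D4:**
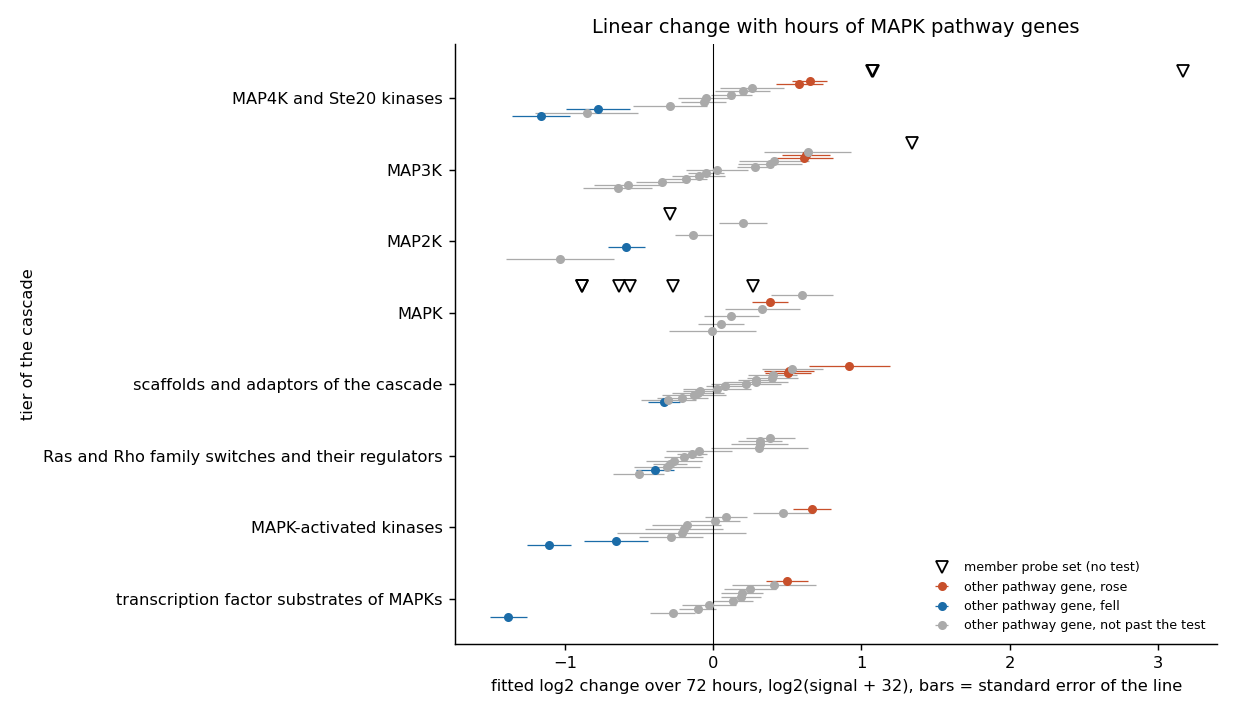
Fitted log2 change over 72 hours on the log2(signal + 32) scale (horizontal axis) of 83 other MAPK pathway genes (points, bars are the standard error of the fitted line) by tier of the cascade (vertical axis), with the 11 member probe sets whose mean signal reached 100 as open triangles that carry no test. Red points are the 10 genes that rose, blue points the 8 that fell, and the triangle at 3.17 is the third Map4k4 probe set.

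The genes whose time course was most like that of 2 members were sought over the 6 later arrays, by the root mean square difference of their log2(signal + 32) changes from 0 hours, among 14010 named probe sets whose mean signal reached 100. For the Map4k4 probe set 1381790_at, the one with the highest ratio, they were Cdhr4 (0.20), Abhd6 (0.23), Slc38a4 (0.35), Vamp1 (0.36) and Rarb (0.36), where the median of all was 1.57. At 72 hours these 5 genes were at ratios of 13.3, 6.59, 5.88, 12.4 and 4.24 to 0 hours, and Cdhr4, Abhd6 and Vamp1 had 0 hour signals below 100. For the Mapk9 probe set 1368646_at, with the lowest ratio, they were Ptprz1 (0.11), Sncaip (0.12), Elovl2 (0.12), Ltbp4 (0.13) and Gnal (0.13), where the median was 0.80. Ptprz1 was at 0.379 and Sncaip at 0.377 of its 0 hour signal at 72 hours. Among so many probe sets some lie close to any course of 7 values, and the likeness is a description of these arrays.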

How the data were processed

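Total RNA of cultured spinal cord cells was hybridised by the authors to 7 Affymetrix GeneChip Rat Genome arrays, 1 for each time. The authors processed the scans in GCOS and deposited a linear signal intensity per probe set from MAS5 with global scaling, so signals near the floor depend on background subtraction. Precision is limited by the number of arrays. Of 31099 probe sets, 57 controls were left out. Names came from the platform annotation, with 20826 probe sets of 1 symbol, 436 of several and 9780 not named, and the symbols of the members matched GRCr8 through their gene identifiers. Ratios to 0 hours used the signals as deposited. A linear change with hours was fitted in limma 3.58.1 under R 4.3.3, two-sided and with an intensity trend in eBayes, on log2(signal + 32). It took the 17709 probe sets whose mean signal reached 100 and left 5 residual degrees of freedom. Adjusted p (Benjamini-Hochberg) under 0.05 counted as past the test, and the fit was tested on simulated data. Its spread is that around the line, not between cultures, so p-values do not measure the spread of cultures. Lines of members below the filter came from a fit without it. Ratios and counts came from Python 3.11.15 and pandas 2.3.3. The members and lists were chosen with earlier results of these data known. Pathway genes named were a fixed set of neighbours of the members and, in each tier, up to 3 further genes past the test with the largest change. Alternatives were other thresholds, scalings, baselines, pseudocounts, filters, forms of time, no intensity trend, all probe sets of a gene and each array left out.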

Additional observations from a re-analysis of the deposited data

How the results depend on the processing

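The number of member probe sets past the rule of size depended on where it was set. With a ratio of 3 in place of 2 it was 1 higher and 0 lower at 72 hours, in place of 4 and 1. With a ratio of 1.5 and a difference of 100 it was 4 lower, with no minimum difference 2 lower, and with the 0 and 2 hour signals averaged as baseline 0 lower. Quantile normalization and scaling to the same median left 4 higher and 1 lower. The shares of all probe sets under these other settings are not given here, so nothing is read from the changes in these counts. Scaling to the same median moved the median log2 ratio of all probe sets by 0.11 at 6 hours and 0.04 at 72 hours. With it 6 other pathway genes rose in place of 10, and without the intensity trend 5 fell in place of 8. Leaving out each array in turn gave 3 to 8 rising and 3 to 11 falling genes. Over all probe sets tested it gave 1244 to 2811 rising and 1266 to 2550 falling, against 2650 and 2493 in the main form. Fitted changes near 0 turned in sign: Spag9 to -0.0084 with the order of arrays, Tnip2 to -0.0071 with quantile normalization and Mapkapk2 to -0.0028 with the same median. Over the arrays left out they ranged from -0.57 to 0.068 for Mapk8ip1, -0.078 to 0.16 for Spag9, -0.12 to 0.48 for Tnip2 and -0.12 to 0.36 for Mapkapk2. None of these 4 passed the test in its main form, and the cause was not tested. In the brightest probe sets, Map4k5, Rps6ka4 and Mef2c kept direction and call under each other pseudocount, filter, form of time, scaling and array left out and without the intensity trend. A second probe set passed for Mef2c (adjusted p = 0.00527 from limma) and not for Map4k5 or Rps6ka4. No paired analysis was possible because each time has 1 array.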
